A study of Bos grunniens and Bos grunniens x Bos taurus with 2 samples.

Results

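The genes described here are the testis-specific serine kinases (TSSK) and the genes of cAMP signalling that the yak annotation carries by symbol, namely the subunits of protein kinase A (PKA), the A-kinase anchoring proteins (AKAP), the adenylyl cyclases (ADCY) and the phosphodiesterases (PDE). The rule for a member was the form of its symbol and used no measured value, and 51 of the 26961 genes of the count tables met it. The families in the rule were chosen with earlier results of these data known. By role they were 4 TSSK kinases, 2 catalytic and 4 regulatory PKA subunits, 13 anchoring proteins, 8 transmembrane cyclases, 1 soluble cyclase, 4 phosphodiesterases of cAMP, 7 of cGMP, 7 of both nucleotides, and *PDE12*, a mitochondrial enzyme that shares the name but does not act on cyclic nucleotides. The phosphodiesterases were grouped by the family number in the symbol, and the 7 of cGMP include *PDE6D*, a carrier of prenylated proteins. All 51 had at least 1 UMI in each library. The 13 symbols *ADCY1*, *AKAP14*, *AKAP2*, *AKAP4*, *PDE11A*, *PDE4C*, *PDE4D*, *PDE6G*, *PDE7A*, *PDE8B*, *PRKACG*, *TSSK2* and *TSSK5* matched no gene by symbol and were not analysed here.

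Testis tissue of 1 male yak (Bos grunniens) aged 4 years and of 1 cattle-yak (Bos grunniens x Bos taurus), both labelled as taken after sexual maturity, was frozen, thawed and digested with collagenase, hyaluronidase and trypsin, and 1 droplet library was made per animal. The cattle-yak is the hybrid of the yak and cattle, whose males are known to be sterile, and its age in years was not given in the sources used here. There were 11991 cells with 60816600 UMIs (unique molecular identifiers, each standing for 1 captured RNA molecule) from the yak and 8930 cells with 43774841 UMIs from the hybrid. No treatment is labelled. Of the cell barcodes, 24 were found in both animals' libraries.

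Adenylyl cyclases make cAMP, PKA is released by it from its regulatory subunits, anchoring proteins hold PKA at set places in the cell, and phosphodiesterases break the signal down. Sperm motility and capacitation depend on a soluble, bicarbonate-sensitive cyclase and on PKA anchored in the tail, and part of this machinery is laid down while the spermatid still transcribes. The TSSK kinases are a family found in post-meiotic germ cells, where they are required for the shaping of the sperm.

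Germ cells of the yak were taken in 2 ways. A deposited table gave 1127 cells a type, with 84 spermatogonial stem cells (SSCs), 486 spermatogonia (SPG), 72 early spermatocytes (early-SPCs), 261 late spermatocytes (late-SPCs) and 224 spermatids (SPT), and these are called typed cells below. A further 790 cells lay above the upper limits of 21212 UMIs or 3637 genes and below a mitochondrial share of 30%, so that they fall outside the limits on depth. They were clustered on their own without any member gene, and 406 of them met the germ-like rule, namely 163 deep SPG, 73 deep early SPC, 99 deep late SPC and 71 deep SPT. Their median depth was 26566 UMIs per cell against 1074 in the typed cells. The cells of either kind come from 1 animal and are not replicates, so no test was run, and every interval below is an exact 95% interval that covers counting error only. A level is the summed UMIs of a gene in a cell group scaled to counts per 1e6 UMIs of that group (CPM). A member was called higher or lower at a fold of at least 2 on CPM + 1 with at least 20 UMIs summed over both sides.

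Doublets were not removed, and their part in the levels of deep cells was not tested. The authors' typing is taken as deposited, and the genes it rested on were not separated from the members.

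The label of both libraries names germ cells, but germ-like cells made up 13.4% of the 10324 kept yak cells, and 3686 kept cells were T/NK-like. Spermatid markers summed to 13003 CPM in deep SPT and 6664 CPM in typed SPT, against 139 CPM in deep SPG. Markers of muscle and myoid cells summed to 5771 CPM in typed SPG and 3302 CPM in typed SPT, against 744 and 466 CPM in the deep cells of the same name and 798 CPM in T/NK-like cells. Spermatogonial markers summed to 1826 CPM in typed SPG and 719 CPM in typed SSC. In the typed SSC, endothelial markers summed to 2201 CPM, above the spermatogonial ones. The part of such RNA in the levels of typed cells was not tested. Of the 9 macrophage markers in the annotation, *AIF1* held 1584 of the 1639 CPM in deep SPT and the sum without it was 55.4 CPM. For a member at 0 UMIs, up to 3 UMIs are allowed by counting, which is 19.6 CPM in the typed SSC, the smallest group by UMIs, and 0.655 CPM in the deep late SPC, the largest of the germ groups.

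The 4 TSSK kinases were highest in spermatids, and *TSSK3* and *TSSK4* were counted in late spermatocytes as well. *TSSK1B* (ENSBGRG00000019032) stood at 0, 6.46, 7.02, 0 and 427 CPM over the typed groups, in the order SSC, SPG, early-SPC, late-SPC and then SPT. In the deep SPG, early SPC, late SPC and SPT it stood at 2.35, 1.85, 9.60 and 873 CPM. The value in deep SPT rested on 2285 UMIs (95% interval 838 to 909.5 CPM), and the log2 ratio to deep late SPC was 6.51 (95% interval 6.08 to 6.97). Spermatids were thus apart from every other germ group. *TSSK4* (ENSBGRG00000017845), whose product acts in sperm maturation, stood at 0, 3.23, 7.02, 16.8 and 206 CPM over the typed groups in the same order and at 1.04, 0.926, 45.4 and 373 CPM over the deep groups. *TSSK3* (ENSBGRG00000012978), a kinase of the same family, stood at 0, 0, 0, 25.2 and 136 CPM over the typed groups and at 2.87, 9.26, 41.5 and 104 CPM over the deep groups. For both, the step from late spermatocyte to spermatid was smaller than for *TSSK1B*, and the log2 ratio of deep SPT to deep late SPC was 3.04 (95% interval 2.82 to 3.26) for *TSSK4* and 1.33 (95% interval 1.06 to 1.61) for *TSSK3*, with intervals that do not overlap those of *TSSK1B*. *TSSK6* (ENSBGRG00000001976), known for its part in the packing of sperm chromatin, reached 31.3 CPM (95% interval 24.9 to 38.9, 82 UMIs) in deep SPT, with 2 UMIs in deep late SPC and 8 in typed SPT.

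**Figure D1:**
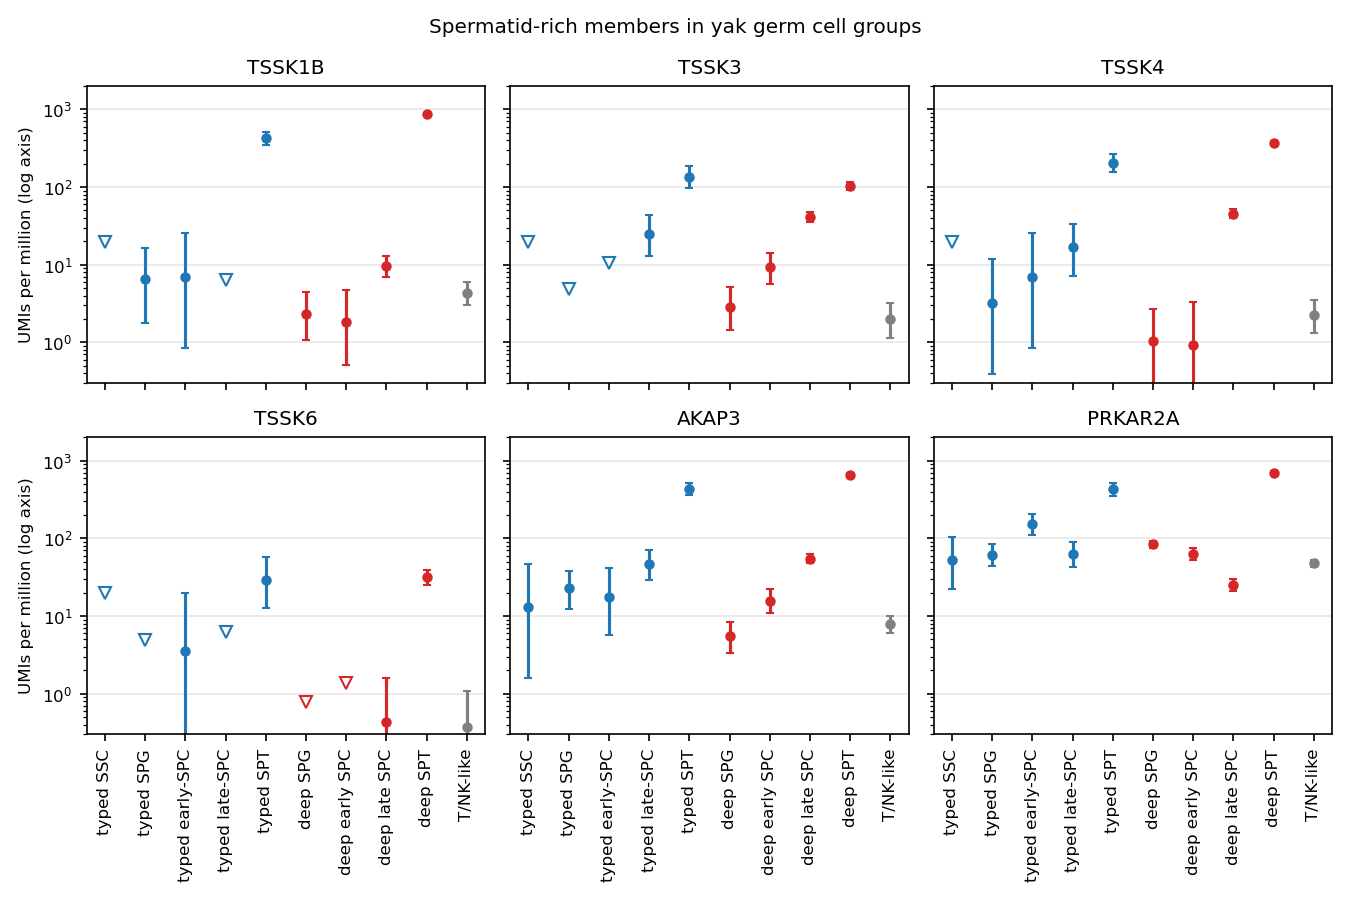
Level of 6 members in yak germ cell groups and in T/NK-like cells, in CPM on a log axis. Points are summed counts with exact 95% intervals, blue for typed, red for deep and grey for T/NK-like cells, and open triangles mark groups without a UMI at the level that 3 UMIs would give. In the deep cells *TSSK1B* goes from 9.60 CPM in late SPC to 873 CPM in SPT, while *TSSK3* and *TSSK4* are already at 41.5 and 45.4 CPM in late SPC.

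Cell by cell, *TSSK1B* had a UMI in 71 of 71 deep SPT, from 3 to 122 UMIs with a median of 32.0. *TSSK4* had a UMI in 71 of 71 deep SPT, from 5 to 40 UMIs with a median of 12. *TSSK3* had a UMI in 65 of 71 and *TSSK6* in 42 of 71 deep SPT. Every deep SPT thus carried both *TSSK1B* and *TSSK4*. In the deep late SPC, *TSSK3* had a UMI in 50 of 99, *TSSK4* in 39 of 99 and *TSSK1B* in 19 of 99 cells. Among the 384 deep cells that were not germ-like, at a median of 22410 UMIs, *TSSK1B* had a UMI in 5 cells, *TSSK3* and *TSSK4* in 6 each, and *TSSK6* in 0, which by the limit of 3 counts allows a UMI in up to 0.781% of such cells and sets no limit on cells that express it.

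In cells thinned to 1000 UMIs, a UMI of any TSSK was found in 46.9% of 98 (95% interval 36.8 to 57.3%) typed SPT and in 1.83% of 164 (95% interval 0.379 to 5.25%) typed late-SPCs. In T/NK-like cells, which should lack these genes, the share was 0.972% of 3497 (95% interval 0.674 to 1.36%). The intervals of typed late-SPCs and of T/NK-like cells overlapped, and that of typed SPT lay far above both. Thinning left out 126 typed SPT, 97 typed late-SPCs and 189 T/NK-like cells, and the median depths before thinning were 906, 1168 and 1946.5 UMIs. Without thinning, the shares were 41.5% of 224 (95% interval 35.0 to 48.3%) typed SPT, 4.98% of 261 (95% interval 2.68 to 8.37%) typed late-SPCs and 1.95% of 3686 (95% interval 1.53 to 2.45%) T/NK-like cells, and the intervals of the latter pair did not overlap. Over all 7 somatic classes of the yak, *TSSK1B* was at 3.66 CPM (95% interval 2.96 to 4.47, 96 UMIs), and in the cattle-yak, which held no spermatid group, 0 of 18954590 somatic UMIs were *TSSK1B*. *TSSK4* had 43.8 UMIs per 100 of *TSSK1B* in the yak somatic classes and 42.7 in deep SPT, and *TSSK3* 37.5 and 11.9. The part of free RNA in the somatic counts was not tested.

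Of the 13 anchoring proteins, *AKAP3* had the pattern of the TSSK kinases. *AKAP3* (ENSBGRG00000011443), a component of the fibrous sheath of the sperm tail that binds PKA, stood at 13.1, 22.6, 17.6, 46.2 and 434 CPM over the typed groups and at 5.48, 15.7, 55.0 and 657 CPM over the deep groups. Its log2 ratio of deep SPT to deep late SPC was 3.58 (95% interval 3.39 to 3.78), and it had a UMI in 71 of 71 deep SPT and 70 of 99 deep late SPC. *AKAP1* (ENSBGRG00000016742), which holds PKA at the outer mitochondrial membrane, stood at 45.7, 46.9, 186, 21.0 and 162 CPM over the typed groups and at 65.2, 40.3, 7.42 and 246 CPM over the deep groups. It was low in late spermatocytes on both sides of the depth limit and high in spermatids, with a log2 ratio of deep SPT to deep late SPC of 5.05 (95% interval 4.56 to 5.60).

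A further 6 anchoring proteins were lower in spermatids than in spermatogonia. *AKAP9* (ENSBGRG00000019580), which sits at the Golgi and the centrosome, stood at 706, 859.7, 843, 220.5 and 309 CPM over the typed groups and at 1767, 887, 78.8 and 85.2 CPM over the deep groups. Deep SPG were above every other germ group and every somatic class, of which stromal-like cells were the highest at 630.3 CPM. *AKAP11*, an anchor that binds the kinase GSK3 as well, stood at 105, 208, 418, 73.5 and 77.3 CPM over the typed and 399, 308, 84.2 and 60.0 CPM over the deep groups. *AKAP7*, a small membrane-bound anchor, stood at 19.6, 53.3, 0, 6.30 and 14.7 CPM over the typed and 73.8, 19.9, 0.655 and 0 CPM over the deep groups. In deep SPT, *AKAP7* had 0 of 2617414 UMIs, so that it was at least 64.4-fold lower there than in deep SPG, taking 3 UMIs over the group as the limit. *AKAP8*, an anchor of the nucleus, stood at 26.1, 46.9, 31.6, 10.5 and 3.68 CPM over the typed and 75.1, 50.5, 18.3 and 3.06 CPM over the deep groups. *AKAP10*, a mitochondrial anchor that binds both kinds of regulatory subunit, stood at 13.1, 19.4, 14.0, 8.40 and 3.68 CPM over the typed and 29.7, 24.1, 6.77 and 4.97 CPM over the deep groups. *AKAP13*, which also activates the small GTPase RhoA, stood at 169.8, 108, 35.1, 48.3 and 47.9 CPM over the typed and 143, 74.6, 52.4 and 12.6 CPM over the deep groups. For *AKAP9*, *AKAP11*, *AKAP8*, *AKAP10* and *AKAP13*, the log2 ratios of deep SPT to deep SPG on CPM + 1 went from -4.36 for *AKAP9* to -2.36 for *AKAP10*.

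*AKAP12* and *AKAP8L* followed neither pattern. *AKAP12*, a scaffold of PKA and protein kinase C, stood at 176, 409, 70.2, 361 and 438 CPM over the typed and 422, 686, 364 and 509.7 CPM over the deep groups. Its highest germ level was in deep early SPC and its lowest in typed early-SPCs, with the highest level of all in lymphatic EC-like cells at 2332 CPM (95% interval 2281 to 2383, 8019 UMIs). *AKAP8L*, a nuclear relative of *AKAP8*, stood at 84.9, 76.0, 418, 54.6 and 92.0 CPM over the typed and 120.5, 107, 66.6 and 131 CPM over the deep groups. The typed early-SPCs were the highest group for *AKAP8L*, at 119 UMIs in 72 cells, and deep early SPC were at 107 CPM. *AKAP5*, an anchor of synapses, *AKAP6*, an anchor of the nuclear envelope of muscle, and *AKAP17A* were the anchoring proteins left, and their highest germ levels lay between 3.68 and 31.6 CPM.

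The make-up of the PKA regulatory subunits changed over the stages of the germ cells. *PRKAR1A* (ENSBGRG00000020508), the RI alpha subunit, stood at 144, 189, 246, 464 and 331 CPM over the typed groups and at 221, 414, 748 and 536 CPM over the deep groups. It was highest in late spermatocytes on both sides of the depth limit. *PRKAR2A* (ENSBGRG00000023547), the RII alpha subunit that binds most anchoring proteins, stood at 52.3, 61.4, 151, 63.0 and 427 CPM over the typed groups and at 83.7, 63.0, 25.3 and 703 CPM over the deep groups. From deep late SPC to deep SPT its log2 ratio was 4.79 (95% interval 4.52 to 5.08), the opposite direction to that of *PRKAR1A*, -0.48 (95% interval -0.57 to -0.39). *PRKAR2B*, the RII beta subunit, stood at 52.3, 48.5, 7.02, 16.8 and 18.4 CPM over the typed and 30.5, 5.56, 3.49 and 4.58 CPM over the deep groups. *PRKAR1B*, the RI beta subunit, was at 21.4 CPM (95% interval 16.2 to 27.8, 56 UMIs) in deep SPT and at most 2.35 CPM in the other deep groups.

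As a share of the UMIs of the 4 regulatory subunits, *PRKAR2A* took 24.8% of 1293 UMIs (95% interval 22.5 to 27.3%) in deep SPG, 13.0% of 1046 UMIs (95% interval 11 to 15.2%) in deep early SPC, 3.26% of 3558 UMIs (95% interval 2.70 to 3.90%) in deep late SPC and 55.5% of 3311 UMIs (95% interval 53.8 to 57.2%) in deep SPT. *PRKAR1A* took 65.4%, 85.5%, 96.3% and 42.4% over the same groups. In the typed cells SPT were again the highest and late-SPCs the lowest for *PRKAR2A*, but early-SPCs lay above SPG. In typed early-SPCs the share of *PRKAR2A* was 37.4% of 115 UMIs (95% interval 28.5 to 46.9%), against 20.4% of 186 UMIs (95% interval 14.9 to 26.9%) in typed SPG, 11.5% of 260 UMIs (95% interval 7.92 to 16.1%) in typed late-SPCs and 53.7% of 216 UMIs (95% interval 46.8 to 60.5%) in typed SPT. *PRKAR2B* took 0.362% of the regulatory UMIs in deep SPT but 57.6% of 2571 UMIs (95% interval 55.7 to 59.6%) in T/NK-like cells and 49.5% in stromal-like cells. Only shares of the same subunit in different groups are compared here, since UMIs of different genes are not captured equally.

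**Figure D2:**
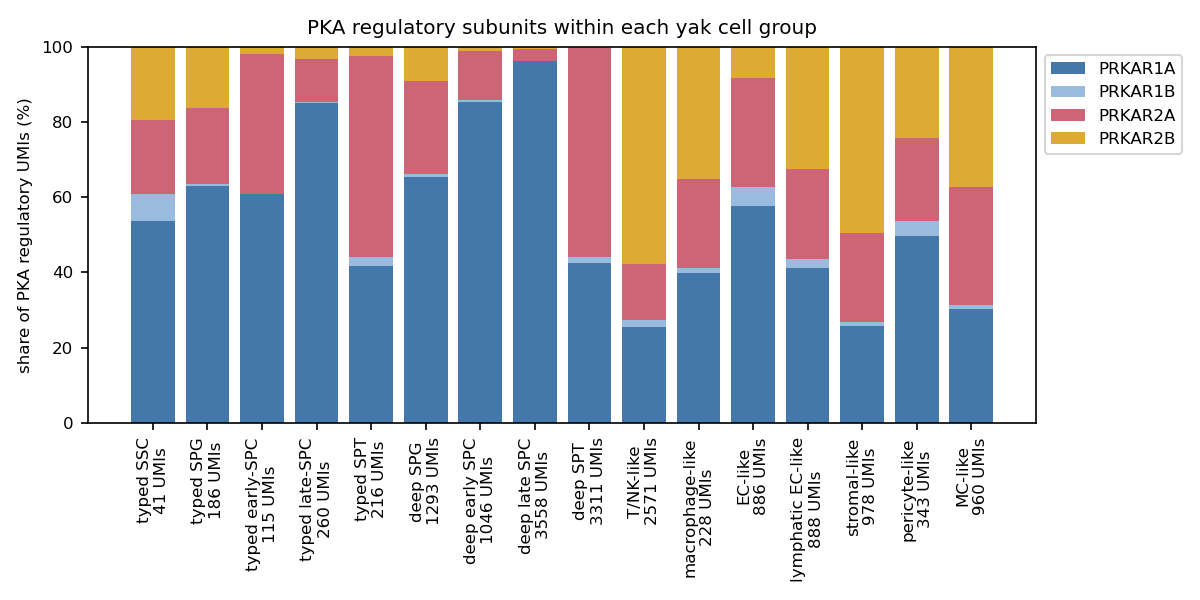
Share of the UMIs of the 4 PKA regulatory subunits taken by each, in percent, in typed germ cells, deep germ cells and somatic classes of the yak, with the UMIs behind each bar under its name. *PRKAR1A* holds 96.3% in deep late SPC, and *PRKAR2A* goes from 3.26% there to 55.5% in deep SPT.

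The catalytic subunits were not higher in spermatids, unlike *PRKAR2A*. *PRKACA* (ENSBGRG00000023559), the C alpha subunit, stood at 39.2, 64.6, 31.6, 65.1 and 18.4 CPM over the typed groups and at 80.0, 110.2, 112 and 16.0 CPM over the deep groups. Its log2 ratio of deep SPT to deep late SPC was -2.80 (95% interval -3.29 to -2.34), and deep SPT were also below deep SPG. *PRKACB*, the C beta subunit, was at 58.1 CPM in T/NK-like cells and at most 6.0 CPM in the deep germ groups.

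Of the 9 cyclases, the soluble one was counted mainly in late spermatocytes and spermatids. *ADCY10* (ENSBGRG00000007654), the bicarbonate-sensitive cyclase of sperm, stood at 0, 1.62, 0, 12.6 and 36.8 CPM over the typed groups and at 0.782, 0.926, 26.2 and 14.1 CPM over the deep groups. Deep late SPC had 26.2 CPM (95% interval 21.7 to 31.3, 120 UMIs), above deep SPT with 14.1 CPM (95% interval 9.95 to 19.5, 37 UMIs), and the typed cells held 6 UMIs in late-SPCs and 10 in SPT, too few to give an order. In somatic classes of the yak it had 7 of 26251902 UMIs. *ADCY6*, a transmembrane cyclase that calcium inhibits, stood at 6.53, 42.0, 7.02, 2.1 and 14.7 CPM over the typed and 34.4, 6.48, 5.46 and 3.82 CPM over the deep groups. Its levels were highest in the spermatogonia among germ cells, and MC-like cells were above them at 105 CPM.

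The 7 other transmembrane cyclases were counted at low levels in germ cells, with highest germ levels between 1.62 CPM for *ADCY7* and 25.8 CPM for *ADCY3*. *ADCY3*, known from the olfactory epithelium, had 37 UMIs in deep SPT (14.1 CPM), 1 in deep late SPC and 0 in deep SPG and deep early SPC. *ADCY8*, a cyclase that calmodulin activates, had 28 UMIs in deep SPT (10.7 CPM) and 5 in deep late SPC. These members were outside the rule for single values and were picked after their values were seen, as were *TSSK6*, *PRKAR1B*, *PRKACB* and the other members of the 22 outside it that are given with values here.

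The 4 phosphodiesterases of cAMP included 1 with a high spermatid level. *PDE4A* (ENSBGRG00000003241), one of the enzymes that rolipram inhibits, stood at 45.7, 32.3, 3.51, 12.6 and 125 CPM over the typed groups and at 37.0, 5.09, 14.6 and 239.9 CPM over the deep groups. Its log2 ratio of deep SPT to deep late SPC was 4.04 (95% interval 3.67 to 4.42), and pericyte-like cells also held 199 CPM. *PDE8A*, a high-affinity enzyme of cAMP, stood at 26.1, 30.7, 14.0, 8.40 and 7.36 CPM over the typed and 31.0, 23.2, 9.82 and 0.382 CPM over the deep groups. The direction of *PDE8A* was thus the reverse, with 1 UMI in deep SPT against 119 in deep SPG. *PDE4B* and *PDE7B* reached 25.8 and 7.36 CPM at most in germ groups, from 7 and 2 UMIs.

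Phosphodiesterases that act on both nucleotides differed in stage. *PDE10A* (ENSBGRG00000014116), an enzyme best known from the striatum of the brain, stood at 0, 6.46, 3.51, 75.6 and 84.7 CPM over the typed groups and at 9.91, 54.6, 145 and 142 CPM over the deep groups. It was high from late spermatocytes on, and deep late SPC and deep SPT did not differ beyond their counting intervals. *PDE1A*, which calmodulin activates, stood at 6.53, 12.9, 10.5, 18.9 and 73.6 CPM over the typed and 3.39, 4.63, 6.11 and 137 CPM over the deep groups. *PDE1C*, its close relative, stood at 0, 6.46, 0, 2.1 and 22.1 CPM over the typed and 3.13, 2.78, 6.55 and 24.8 CPM over the deep groups. Both were higher in deep SPT than in deep late SPC, at log2 ratios of 4.48 (95% interval 3.93 to 5.09) and 1.92 (95% interval 1.28 to 2.60). *PDE3B*, an enzyme that cGMP inhibits, stood at 137, 50.1, 17.6, 118 and 55.2 CPM over the typed and 56.1, 264, 108 and 12.6 CPM over the deep groups. Of the deep groups, early SPC were the highest and SPT the lowest for *PDE3B*, and of the typed groups early-SPCs were the lowest. *PDE2A*, which cGMP stimulates, stood at 13.1, 24.2, 7.02, 0 and 11 CPM over the typed and 14.1, 2.78, 5.46 and 7.26 CPM over the deep groups, below EC-like cells at 139 CPM. *PDE3A* reached 45.7 CPM in typed SSC, from 7 UMIs, and at most 3.91 CPM in deep germ groups, while MC-like cells held 122 CPM. *PDE1B* had at most 1.75 CPM in a germ group.

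Among the phosphodiesterases of cGMP, *PDE5A* and *PDE6D* were lower in deep SPT than in earlier deep stages, *PDE5A* with the exception of late SPC. *PDE5A*, the target of sildenafil, stood at 19.6, 197, 7.02, 35.7 and 88.4 CPM over the typed groups and at 149, 131, 4.15 and 5.35 CPM over the deep groups. Deep SPG and early SPC were far above deep late SPC and SPT, whereas typed early-SPCs were below typed late-SPCs and SPT. Myoid, stromal and lymphatic EC-like cells held 382, 274 and 468 CPM of *PDE5A*, and the sums of myoid markers in typed cells are given above. *PDE6D*, a carrier of prenylated proteins that takes its name from the enzyme of the retina, stood at 13.1, 45.2, 425, 113 and 44.2 CPM over the typed and 42.0, 144, 114 and 7.26 CPM over the deep groups. *PDE9A*, a high-affinity enzyme of cGMP, stood at 26.1, 11.3, 0, 8.40 and 11 CPM over the typed and 18.3, 4.17, 5.46 and 25.6 CPM over the deep groups. The retinal subunits *PDE6A*, *PDE6B* and *PDE6C* reached 19.9, 24.5 and 18.3 CPM in deep SPT, from 52, 64 and 48 UMIs, against at most 5.24 CPM in the other deep groups. *PDE6H* had at most 1 UMI in any germ group, and *PDE12* at most 12.9 CPM.

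**Figure D3:**
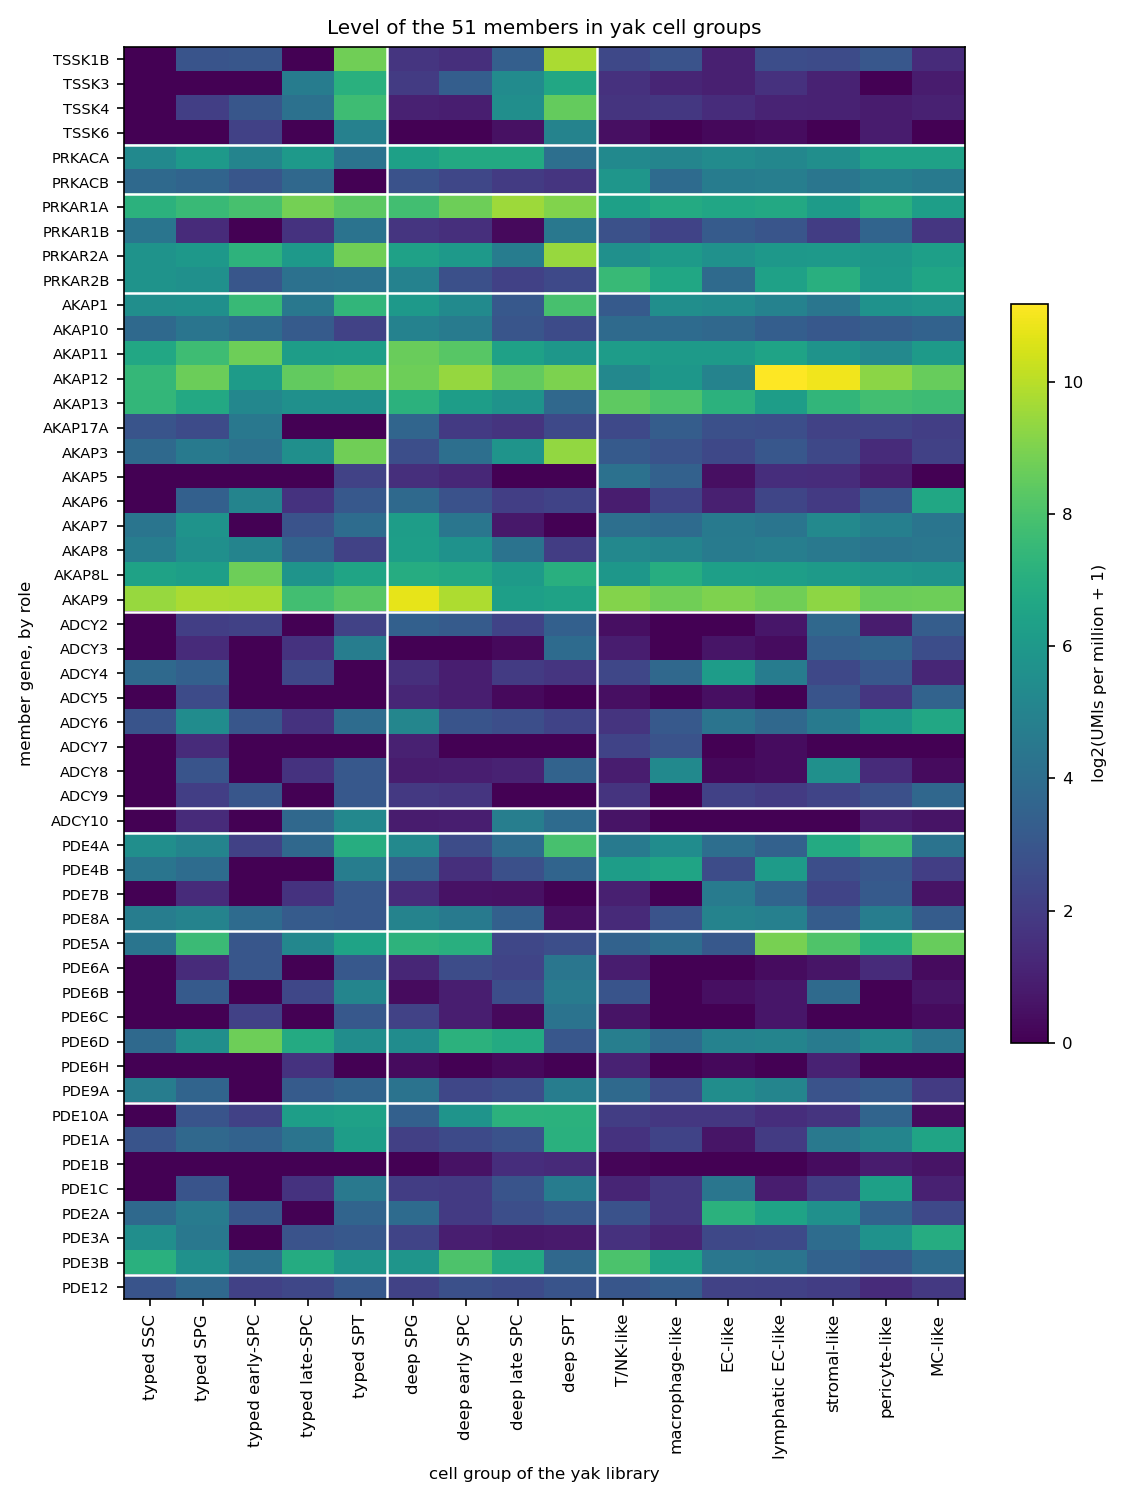
Level of the 51 members, as log2(CPM + 1), in 5 typed and 4 deep germ groups and 7 somatic classes of the yak, with rows ordered by role and white lines between roles. Columns of typed and deep SPT share the bright rows of *TSSK1B*, *AKAP3* and *PRKAR2A*, and *AKAP12* is brightest in the lymphatic EC-like and stromal-like columns.

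Counted over the members with enough UMIs, more were called higher than lower in spermatids against late spermatocytes, where among all genes more were lower than higher. In deep SPT against deep late SPC, the members called higher were 18 of 40 members tested (27.4% of all genes tested), and those called lower were 6 of 40 (35.1% of all genes). In typed SPT against typed late-SPCs, the members called higher were 9 of 19 members tested (21.1% of all genes tested), and those lower 3 of 19 (27.9% of all genes). In typed SPT against typed SPG, the members called higher were 9 of 24 members tested (24.6% of all genes tested), and those lower 10 of 24 (32.3% of all genes). In deep SPT against deep SPG, the members called higher were 19 of 42 members tested (29.4% of all genes tested), and those lower 16 of 42 (48.7% of all genes). These comparisons share cell groups, and the minimum of 20 UMIs lets in a gene that is low in one group only if it is high in the other, for members as for all genes. The counts describe the members and are no test of them.

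Steps before the spermatid had members on both sides. In deep early SPC against deep SPG, the members called higher were 5 of 31 members tested (18% of all genes tested), and those lower 9 of 31 (26.3% of all genes). In deep late SPC against deep early SPC, the members called higher were 9 of 36 members tested (22.7% of all genes tested), and those lower 10 of 36 (31.9% of all genes). These shares were near those of all genes. In the typed cells, late-SPCs against SPG had 4 of 20 members tested (27.1% of all genes tested) called higher, and lower were 11 of 20 (29.2% of all genes). Early-SPCs against SPG had 4 of 18 members tested (24.8% of all genes tested) called higher, and lower were 10 of 18 (35.9% of all genes). These counts have no replicate check.

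Within a stage the deep clusters differed in ways that the stage sums hide. The 99 deep late SPC fell into a cluster of 49 cells, with spermatid markers at 265 CPM, and one of 50 cells, with spermatid markers at 1548 CPM. *TSSK4* was at 0.364 CPM in the first and 113 CPM in the second. *TSSK3* was at 9.83 and 88.8 CPM, *AKAP3* at 21.9 and 105 CPM, and *TSSK1B* at 4.01 and 18.0 CPM. Of the *TSSK4* UMIs of late spermatocytes, 207 were in the cluster richer in spermatid markers and 1 in the other, and of the *TSSK3* UMIs, 163 and 27. In that cluster *TSSK3* stood near its level in the spermatid clusters of 26 and 45 cells (121 and 93.9 CPM), whereas *TSSK1B* stood far below its own (592 and 1046 CPM). *AKAP12* fell the other way, from 514 to 139 CPM, and *PDE3B* from 146 to 52.3 CPM.

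The 2 spermatid clusters differed as well. The cluster of 26 cells had spermatid markers at 9283 CPM and late spermatocyte markers at 3301 CPM, and that of 45 cells had 15301 and 1958 CPM. *PRKAR2A* was at 345 CPM in the smaller cluster and 923 CPM in the larger. *AKAP1* was at 124 and 322 CPM, and *TSSK6* at 9.0 and 45.1 CPM. *PRKAR1A* was at 655 and 463 CPM, and *ADCY10* at 22.0 and 9.27 CPM. *PRKAR2A*, *AKAP1*, *TSSK1B* and *TSSK6* were thus higher in the cluster richer in spermatid markers, and *PRKAR1A* and *ADCY10* lower. *PDE4A*, at 249 and 234 CPM, and *PDE10A*, at 146 and 139 CPM, did not differ beyond their counting intervals.

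The deep early SPC were 3 clusters of 40, 17 and 16 cells, with spermatogonial markers at 2439, 46.2 and 28.6 CPM. In the same order early spermatocyte markers summed to 2933, 4462 and 2618 CPM and late spermatocyte markers to 313, 4081 and 8894 CPM. Over all 73 cells late spermatocyte markers, at 5001 CPM, were above early ones, at 3112 CPM, whereas typed early-SPCs held 355 and 7792 CPM, so the name early SPC stands for the naming rule and not for a matched stage. *AKAP9* stood at 2061, 625 and 141 CPM in that order. *PDE5A* stood at 373, 15.4 and 5.10 CPM, so that its count in early spermatocytes came from the cluster richest in spermatogonial markers. *PDE3B* stood at 20.7, 180.3 and 483 CPM and *AKAP12* at 137, 402 and 1223 CPM, both highest in the cluster of 16 cells. *PRKAR1A* stood at 192, 323 and 620.4 CPM and *PDE10A* at 13.8, 50.6 and 86.7 CPM. A level of the deep early SPC as a whole is therefore a mean over unlike clusters.

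**Figure D4:**
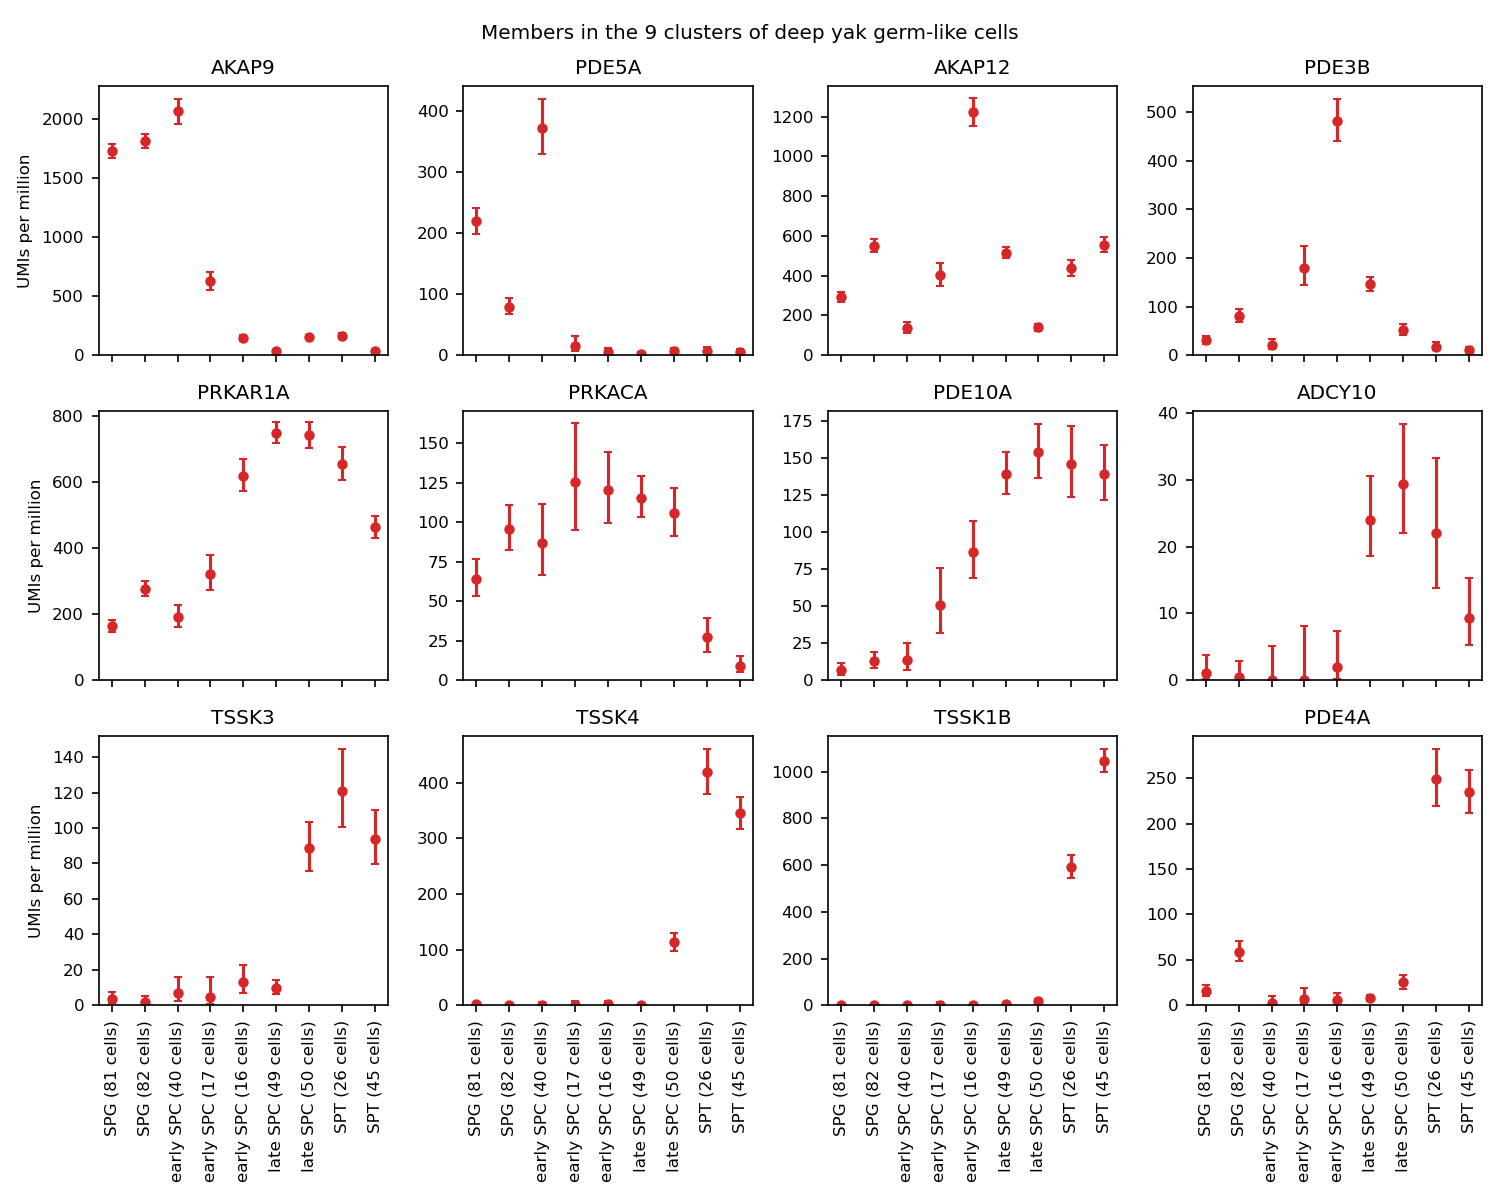
Level of 12 members in the 9 clusters of deep yak germ-like cells, in CPM with exact 95% intervals, each panel on its own axis from 0. Clusters are set by stage, then by falling spermatogonial markers up to early SPC and by rising spermatid markers from late SPC on, which is an order of markers and not of measured time. *TSSK4* is at 113 CPM in the second late SPC cluster and *TSSK1B* at 18.0 CPM.

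Typed and deep cells of the same name were compared to see how far the groups match, a comparison added after the data were seen. In SPG, 4 of 31 members tested (9.93% of all genes tested) were called higher in typed cells, and lower were 3 of 31 (13.3% of all genes). In early-SPCs, 5 of 20 members tested (16.1% of all genes tested) were called higher in typed cells, and lower were 8 of 20 (42.3% of all genes). Typed and deep early spermatocytes were thus the least alike. *PDE5A* was at 7.02 CPM in typed and 131 CPM in deep early spermatocytes, *PDE3B* at 17.6 and 264 CPM, and *AKAP12* at 70.2 and 686 CPM. In late-SPCs, 6 of 31 members tested (16.2% of all genes tested) were called higher in typed cells, and lower were 6 of 31 (14% of all genes). In SPT, 7 of 32 members tested (16.7% of all genes tested) were called higher in typed cells, and lower were 5 of 32 (15.9% of all genes). From SPG to early spermatocytes, *PDE3B* and *AKAP12* were higher in the deep cells and lower in the typed cells. *PRKAR1A* and *PDE6D* were higher, and *ADCY6* and *PDE4A* lower, in both. Directions given above for deep early SPC therefore do not all hold for the typed early-SPCs.

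The 7 somatic classes were T/NK-like, macrophage-like, EC-like, lymphatic EC-like, stromal-like, pericyte-like and MC-like cells, with no class of Sertoli or Leydig cells. Over these classes of the yak, Sertoli markers summed to 27.7 CPM and Leydig markers to 15.0 CPM. Against somatic cells, the typed germ cells had 11 of 46 members tested (30.4% of all genes tested) called higher, and lower were 9 of 46 (16.3% of all genes). The deep germ-like cells against the other deep cells had 17 of 47 members tested (43% of all genes tested) called higher, and lower were 9 of 47 (21.2% of all genes). Of the 51 members, 31 had their highest level in a germ group and 20 in a somatic class, and for 22 the interval of the highest group lay above that of the second. The germ groups most often highest were deep SPT, for 11 members, and deep SPG, for 5. The same counts were not made over all genes, so they do not show a trait of the members. A small group can be highest on few UMIs, as typed late-SPCs were for *PDE6H* from 1 UMI. In both comparisons with somatic cells, the shares of members called higher and of those called lower were near those of all genes.

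The 3 highest members of the somatic classes overlapped, and *AKAP9* was among them in all 7. In T/NK-like cells these were *AKAP9* (545 CPM), *AKAP13* (340.2 CPM) and *PDE3B* (258 CPM). *AKAP13* and *PRKAR2B* were highest of all groups in T/NK-like cells, and *PDE3B* did not differ there from deep early SPC beyond the counting intervals. In macrophage-like cells the 3 were *AKAP9* (432 CPM), *AKAP13* (259 CPM) and *AKAP8L* (123 CPM). In EC-like cells they were *AKAP9* (516 CPM), *AKAP13* (143 CPM) and *PDE2A* (139 CPM), and *ADCY4*, at 72.8 CPM, had its highest level there.

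In lymphatic, stromal, pericyte and muscle classes *AKAP12* joined *AKAP9* among the 3 highest. In lymphatic EC-like cells the 3 highest were *AKAP12* (2332 CPM), *PDE5A* (468 CPM) and *AKAP9* (438 CPM). In stromal-like cells they were *AKAP12* (1992 CPM), *AKAP9* (630.3 CPM) and *PDE5A* (274 CPM). *ADCY8*, at 47.4 CPM, was highest there, though its interval overlapped that of macrophage-like cells, at 39.2 CPM. In pericyte-like cells they were *AKAP12* (607 CPM), *AKAP9* (404 CPM) and *AKAP13* (219.7 CPM), and *PDE1C*, at 80.9 CPM, was highest there. In MC-like cells, the myoid and smooth muscle class, they were *AKAP9* (426 CPM), *AKAP12* (388 CPM) and *PDE5A* (382 CPM). *ADCY6*, *AKAP6*, *PDE3A*, *ADCY5* and *ADCY9* had their highest level in MC-like cells, at 105, 99.8, 122, 10.8 and 12.1 CPM, though for *ADCY5* and *ADCY9* the interval overlapped that of the next group.

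Other genes of the pathway were read from lists of 50 genes, of which 40 matched a symbol, and *ROPN1*, *ROPN1L*, *SPA17*, *CABYR*, *FSIP1*, *FSIP2*, *PKIB*, *PKIG*, *PRKX* and *LHCGR* were not analysed here. In deep SPT against deep SPG, 18 of the 40 had enough UMIs, 8 were called higher and 7 lower, and in deep SPT against deep late SPC 19 had enough, 5 were higher and 8 lower. Among all genes tested, 29.4% were higher and 48.7% lower in the first comparison, and 27.4% and 35.1% in the second. Both partners of the TSSK kinases were counted in germ cells. *TSKS*, a substrate of TSSK kinases, stood at 31.0, 3.24, 30.3 and 809.6 CPM over the deep groups. *TSACC*, a cochaperone that activates TSSK kinases, stood at 121, 1331, 3974 and 3774 CPM over the deep groups. Of the deep groups, early SPC, late SPC and SPT thus held *TSACC* in number, and *TSKS* was mainly in SPT. The deep early SPC are a mean over unlike clusters, as given above, so they do not show at which stage *TSACC* rises.

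Of the cAMP response transcription factors, *FHL5*, the germ cell coactivator of *CREM*, stood at 2.09, 2.78, 2.40 and 595 CPM over the deep groups. *ATF1* stood at 49.5, 34.3, 141 and 138 CPM. *CREM* stood at 1.04, 12.5, 39.9 and 82.1 CPM, highest in deep SPT, and *CREB1*, the third by level in typed germ cells, at 30.5, 17.1, 27.3 and 11.5 CPM. Of the G proteins, *GNAI3* stood at 253, 262, 367 and 267 CPM and *GNAS*, the stimulatory alpha subunit, at 409, 164, 96.0 and 128 CPM over the deep groups, with *GNAS* at 1519.9 CPM in the somatic classes. *GNAL*, the olfactory counterpart of *GNAS*, stood at 112, 10.7, 2.40 and 1.15 CPM, and *GNAI2* at 20.1, 18.1, 63.3 and 17.6 CPM.

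Receptors, sensors and channels had their levels spread over different stages. *ADORA2A*, an adenosine receptor, stood at 26.9, 42.1, 73.1 and 26.7 CPM over the deep groups, *CALCRL* at 3.13, 1.85, 1.53 and 32.9 CPM, *PTGER4* at 3.91, 2.32, 0.437 and 0.764 CPM and *FSHR* at 0 in all of them. *SLC9C1*, the sperm sodium-proton exchanger with a cyclic nucleotide domain, stood at 0.261, 15.7, 115 and 9.55 CPM, and the channel subunit *CNGA3* at 2.87, 90.8, 78.6 and 29.8 CPM. *SLC9C1* was highest in deep late SPC, as was *ADCY10*. *POPDC3* stood at 1.83, 0.463, 3.93 and 3.82 CPM and *PDE4DIP*, an anchor of phosphodiesterases, at 58.9, 32.4, 48.2 and 11.5 CPM. The exchange factors *RAPGEF3* and *RAPGEF4* were at no more than 3.39 CPM in the deep groups, and *RAPGEF3* was at 9.42 CPM (17 UMIs) over all typed germ cells. *PKIA*, the one PKA inhibitor matched, had 1.04 CPM in deep SPG and 0 in the other deep groups.

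The cattle-yak library was compared with the yak library class by class. This compares 2 libraries, 1 per animal, and not the crosses. The cattle-yak held 310 germ-like cells with 4326344 UMIs, 177 of them kept and 133 deep. Of the deep cells, 28 were SPG, 40 early SPC and 10 late SPC, 55 had no stage, and no cluster was named SPT. Spermatid markers summed to 97.8 CPM in its germ-like cells, against 2802 CPM in the yak. In all germ-like cells, 16 of 47 members tested (26.5% of all genes tested) were called higher in the yak, and lower were 2 of 47 (10.8% of all genes). Mitochondrial genes took 6.76% of the UMIs of yak germ-like cells and 20.3% of those of the cattle-yak, and without them in the denominator every log2 ratio is lower by 0.23, with 14 members called higher and 7 lower. *TSSK1B* was at 171 CPM in the yak and had 0 UMIs in the cattle-yak, so it was at least 246-fold higher in the yak, taking 3 UMIs over the group as the limit. *TSSK4* had 1438 UMIs in the yak and 1 in the cattle-yak, a log2 ratio of 8.56 (95% interval 6.08 to 13.87). *AKAP3* had 2451 UMIs and 11, a log2 ratio of 5.87 (95% interval 5.03 to 6.88). The smallest log2 ratios were -1.20 (95% interval -1.43 to -0.97) for *AKAP7*, -1.03 (95% interval -1.07 to -0.98) for *AKAP9* and -0.96 (95% interval -1.26 to -0.64) for *AKAP10*. The first 3 were members of spermatids and the last 3 were higher in deep SPG than in deep SPT, and the mix of stages in the libraries cannot be told apart from a change within a stage in this comparison.

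Cells of the same stage name were compared as well, after the data were seen. In deep SPG, 6 of 28 members tested (13.7% of all genes tested) were called higher in the yak, and lower were 1 of 28 (3.39% of all genes). The 3 largest log2 ratios there were 2.30 (95% interval -0.34 to 7.67) for *AKAP3*, which had 1 UMI in the cattle-yak, 1.72 (95% interval 0.42 to 3.38) for *PDE9A* and 1.48 (95% interval 0.84 to 2.20) for *AKAP1*, and *PRKACA* was lower in the yak at -1.10 (95% interval -1.38 to -0.81). In deep early SPC, 6 of 20 members tested (24.1% of all genes tested) were called higher, and lower were 3 of 20 (14.9% of all genes). *PDE3B* was at 264 CPM in the yak and 32.9 CPM in the cattle-yak, *PDE10A* at 54.6 and 5.07 CPM, and *AKAP7* at 19.9 and 91.2 CPM. Spermatogonial markers summed to 2567 CPM in the cattle-yak early SPC and 841 CPM in those of the yak, and late spermatocyte markers to 207 and 5001 CPM. The part of these differences between the groups in the member values was not tested. The yak cluster of 40 early SPC, picked after its markers were seen, had 20.7 CPM of *PDE3B*, 13.8 CPM of *PDE10A* and 55.2 CPM of *AKAP7*.

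In deep late SPC, with 10 cattle-yak cells and 251820 UMIs, 10 of 31 members tested (33.1% of all genes tested) were called higher in the yak, and lower were 9 of 31 (24.7% of all genes). *TSSK4*, *AKAP3* and *ADCY10*, at 45.4, 55.0 and 26.2 CPM in the yak, had 0 UMIs there, where 3 UMIs would be 11.9 CPM. Spermatid markers summed to 250 CPM in these 10 cells and 779 CPM in the yak late SPC. Nearly all *TSSK4* UMIs of the yak late SPC lay in the cluster richer in spermatid markers, as given above. The part of this difference between the groups in the member values was not tested. *AKAP9* was at 78.8 CPM in the yak and 556 CPM in the cattle-yak. Early spermatocyte markers summed to 3784 CPM in these 10 cells and 1404 CPM in the yak late SPC, and the yak early SPC clusters of 17 and 16 cells had 625 and 141 CPM of *AKAP9*. Those clusters were picked after their values were seen, and the part of the marker difference in the *AKAP9* values was not tested.

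**Figure D5:**
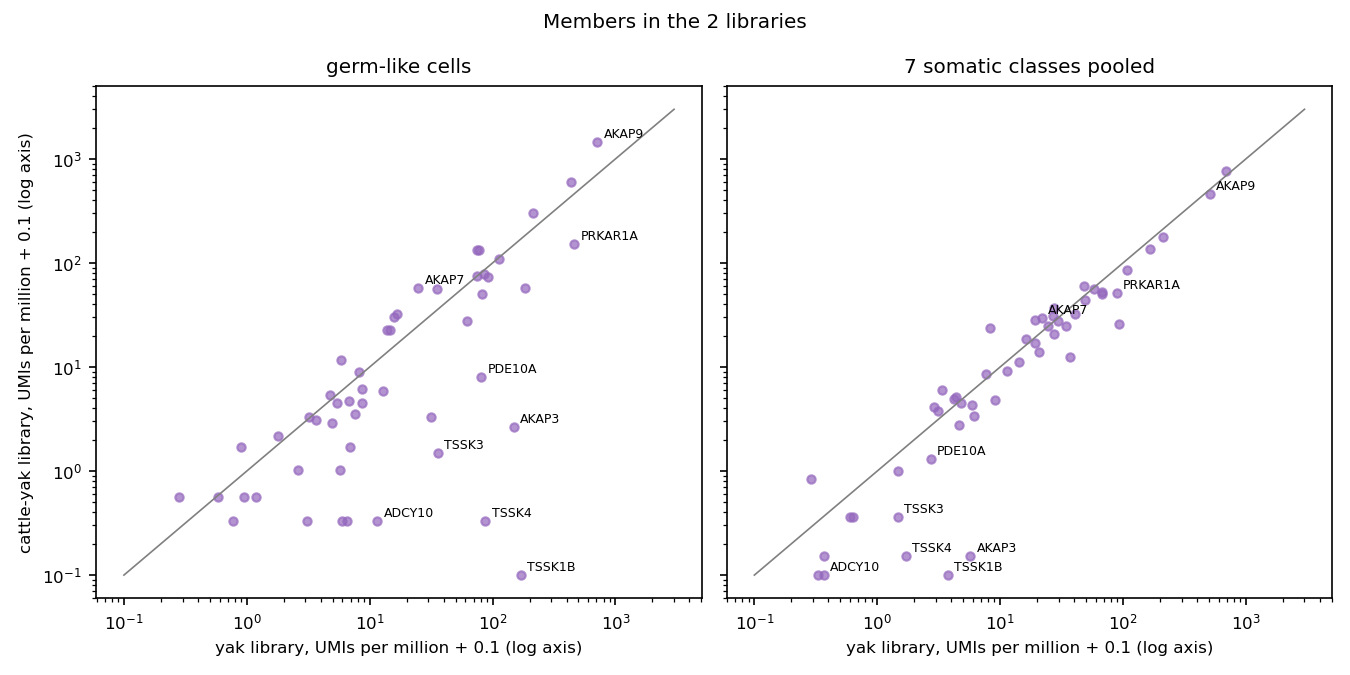
Level of each member in the yak library against the cattle-yak library, in germ-like cells on the left and in the 7 somatic classes pooled on the right, as CPM + 0.1 on log axes, with the line of equal levels. In germ-like cells *TSSK1B*, *TSSK4* and *AKAP3* lie far below the line, at 171, 87.4 and 149 CPM in the yak, and most somatic levels lie close to it.

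In somatic classes the members moved about as often as other genes. Over the 7 classes and 204 pairs of member and class tested, 20 were called higher in the yak, against 7.88% of all such pairs of genes, and 8 lower, against 3.91%. By class, T/NK-like cells had 4 of 37 members tested (8.19% of all genes tested) called higher in the yak and 5 of 37 (8.64% of all genes) called lower. EC-like cells had 1 of 32 members tested (4.35% of all genes tested) higher and 1 of 32 (3.39% of all genes) lower. Stromal-like cells had 3 of 38 members tested (9.12% of all genes tested) higher and 0 of 38 (2.17% of all genes) lower, and MC-like cells 1 of 31 members tested (4.33% of all genes tested) higher and 0 of 31 (3.19% of all genes) lower. Pericyte-like cells had 0 of 21 members tested (9.74% of all genes tested) higher and 0 of 21 (2.91% of all genes) lower, and macrophage-like cells 2 of 17 members tested (9.14% of all genes tested) higher and 2 of 17 (3.13% of all genes) lower. Lymphatic EC-like cells were the class with the most members called higher.

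In lymphatic EC-like cells, 9 of 28 members tested (12% of all genes tested) were called higher and 0 of 28 (2.71% of all genes) lower, with *PRKAR2B* at 84.0 CPM in the yak and 7.48 CPM in the cattle-yak, *PDE3B* at 18.6 and 2.49 CPM, and *AKAP3* at 7.27 CPM and 0. The T/NK markers summed to 68.3 CPM in this class of the yak and 14.1 CPM in that of the cattle-yak, and *PRKAR2B* and *PDE3B* are high in T/NK-like cells, as given above. In T/NK-like cells of the yak, the T/NK markers summed to 1673 CPM and *PRKAR2B* was at 183 CPM. The class differed in other markers too, with lymphatic markers at 5082 CPM in the yak and 11018 CPM in the cattle-yak. Endothelial markers summed to 2504 and 1368 CPM and muscle markers to 1180 and 293 CPM. The part of these differences in the member values was not tested. The smallest ratios of this class were those of *PDE7B* (-0.69, 95% interval -1.48 to 0.14), *PDE2A* (-0.53, 95% interval -0.82 to -0.24) and *AKAP7* (-0.42, 95% interval -1.06 to 0.24), none past the fold.

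*PDE3B* was among the 3 largest ratios in stromal-like, MC-like and macrophage-like cells as well, at log2 ratios of 2.58 (95% interval 1.51 to 3.81), 1.90 (95% interval 1.09 to 2.78) and 1.05 (95% interval 0.30 to 1.86). T/NK markers summed to 66.9 CPM in the yak and 5.83 CPM in the cattle-yak in stromal-like cells, to 62.3 and 15.3 CPM in MC-like cells and to 135 and 83.6 CPM in macrophage-like cells, and their part was not tested. The others were *PDE4B*, with 20 UMIs against 1 and a log2 ratio of 4.82 (95% interval 2.18 to 10.20), and *ADCY4* at 2.18 (95% interval 0.67 to 3.98) in stromal-like cells, *PDE5A* at 0.81 (95% interval 0.69 to 0.93) and *PRKACB* at 0.60 (95% interval 0.13 to 1.07) in MC-like cells, and *ADCY8* at 1.80 (95% interval 0.42 to 3.52) and *AKAP8L* at 1.01 (95% interval 0.38 to 1.68) in macrophage-like cells. In EC-like cells the 3 largest were *AKAP3*, at 4.38 CPM against 0, *PRKAR2B* at 0.94 (95% interval 0.28 to 1.63) and *PRKAR1A* at 0.78 (95% interval 0.55 to 1.02). In EC-like cells spermatid markers summed to 49.9 CPM in the yak and 4.52 CPM in the cattle-yak, and T/NK markers to 33.7 CPM in the yak and 6.91 CPM in the cattle-yak, and their part was not tested. In pericyte-like cells the 3 largest were *PDE1C* at 0.95 (95% interval 0.24 to 1.74), *PDE8A* at 0.94 (95% interval -0.33 to 2.49) and *PRKAR1A* at 0.77 (95% interval 0.24 to 1.33). Muscle markers summed to 16253 CPM in pericyte-like cells of the yak and 5109 CPM in those of the cattle-yak, and their part was not tested. In T/NK-like cells *AKAP3*, *TSSK1B* and *PDE10A* were at 7.91, 4.32 and 3.09 CPM in the yak and at 0 in the cattle-yak. Spermatid markers summed to 99.9 CPM in the yak and 10.8 CPM in the cattle-yak in this class, and the part of that RNA was not tested.

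On the other side, *ADCY8*, *AKAP12* and *PDE5A* were lower in yak than in cattle-yak T/NK-like cells, at log2 ratios of -3.44 (95% interval -4.87 to -2.24), -2.48 (95% interval -2.68 to -2.28) and -1.83 (95% interval -2.23 to -1.42). Stromal-like cells hold all of these at a high level in both libraries, and stromal markers summed to 81.3 CPM in T/NK-like cells of the yak and 559 CPM in those of the cattle-yak. Lymphatic EC-like cells were the highest yak class for *AKAP12* and *PDE5A*, and lymphatic markers in T/NK-like cells summed to 31.1 CPM in the yak and 157 CPM in the cattle-yak. The part of such RNA was not tested. *AKAP12* was also lower in yak EC-like cells (-1.35, 95% interval -1.63 to -1.07), followed by *PDE6D* (-0.50, 95% interval -0.82 to -0.17) and *PDE9A* (-0.35, 95% interval -0.62 to -0.07), and stromal markers in this class summed to 45.0 CPM in the yak and 155 CPM in the cattle-yak. Lymphatic markers in EC-like cells summed to 17.3 and 86.9 CPM. The part of both was not tested either. In stromal-like cells the smallest were *PDE1A* (-0.71, 95% interval -1.10 to -0.32), *ADCY8* (-0.62, 95% interval -0.89 to -0.36) and *PDE6D* (-0.53, 95% interval -0.91 to -0.16). In macrophage-like cells they were *PRKACB* (-1.84, 95% interval -3.03 to -0.73), *AKAP7* (-1.08, 95% interval -2.38 to 0.20) and *AKAP12* (-0.84, 95% interval -1.45 to -0.22). In MC-like cells *PRKAR1B*, *AKAP17A* and *PDE6D*, and in pericyte-like cells *AKAP13*, *AKAP7* and *PDE1A*, had the smallest log2 ratios, from -0.51 to -0.33, and none was past the fold.

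*PRKAR1A* was higher in the yak in every somatic class. It was at 81.0 CPM in yak and 55.6 CPM in cattle-yak T/NK-like cells, at 97.6 and 56.9 CPM in EC-like, at 69.4 and 37.1 CPM in stromal-like and at 76.8 and 52.2 CPM in MC-like cells. The difference in the 7 of 7 classes was 0.54 to 0.88 on the log2 scale of CPM + 1, short of the fold set for a call, and 0.44 to 0.80 without mitochondrial genes in the denominator. In deep SPG *PRKAR1A* was at 221 and 146 CPM. In the deep cells that were not germ-like it had 1131 of 9494521 UMIs in the yak and 843 of 8154931 in the cattle-yak. Without mitochondrial genes the log2 difference in those cells was 0.136. Spermatogonial markers summed to 71.4 CPM in those cells of the yak and 952 CPM in those of the cattle-yak. Early spermatocyte markers summed to 65.3 and 298 CPM, so the groups were unlike in germ cell markers. The part of this marker difference in the *PRKAR1A* values was not tested. *AKAP8L* and *PDE4A* were also higher in the yak in 7 of 7 classes. Their differences were 0.085 to 0.997 and 0.027 to 0.752 on the log2 scale of CPM + 1. Over all genes tested the median log2 difference was above 0 in each class as well, from 0.07 to 0.32. Reads of the hybrid were counted on the yak annotation, and whether its cattle alleles were counted as fully was not tested. *PRKAR1A* was picked here after its values were seen.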

How the data were processed

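The deposited files held, for each library, whole-number UMI counts per gene and cell that the authors had made with Cell Ranger, version 5.0.0 per the file headers and 2.1.1 per the submitters' processing notes, on the yak genome BosGru3.0 per the study's methods, and both tables carried the same yak gene identifiers. The study's methods name a Cell Ranger version that differs from both, and which version made the counts is not known. The authors' table of germ cell types was deposited as well. Cells were kept within 2 SDs of the mean of genes and of UMIs and below a mitochondrial share of 30%, following the study's limits, and cells above an upper limit were treated apart. The 10324 yak cells kept are more than the study reports after filtering, so the split is not the study's own. Kept and deep cells were each clustered with scanpy 1.11.5 and Leiden at resolution 1, on 2000 variable genes and 30 principal components, without the members. Clusters were named from marker lists, with at least 3 enriched markers, or 5 for germ cells. Scrublet called 0 yak cells and so did not work there, and 251 cattle-yak cells, and no cell was removed.

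Counts were summed per cell group in Python 3.11.15 with numpy 2.4.6 and scipy 1.17.1, and exact Poisson and binomial intervals were taken. With 1 library per animal no test was possible. The calling step was run on simulated counts with known folds and counting error only. Such a run cannot show how calls vary between cells or animals. The values of each of the 29 members with at least 50 UMIs in typed or 100 UMIs in deep germ cells were given in every germ group, the others by count and range, the 3 highest members in each somatic class, and the 3 largest and smallest ratios between libraries. Members and lists were chosen with earlier results of these data known. Promoter and protein sequences and genome positions were not analysed here.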

Additional observations from a re-analysis of the deposited data

How the results depend on the processing

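No paired analysis was possible because each animal gave 1 library. Of the values under the alternatives planned, 111 kept within 1.5 times the reported count or within its interval and 31 moved. They include the alternative that left out the 10% of cells scored highest by Scrublet, which called 0 yak cells. That alternative cannot show the part of doublets in the yak values. In deep SPT it removed no UMI of the PKA regulatory subunits, with 3311 before and after. Counts between deep stages were not run under the alternatives. The counts of typed germ cells and of deep germ-like cells against somatic cells did not move with the minimum of 20 UMIs. Nor did those of all germ-like cells between libraries. The counts between typed stages and in the somatic classes between libraries did move with it. Without a minimum they were 8 and 27 in late-SPCs against SPG, 19 and 18 in SPT against SPG, 9 and 25 in early-SPCs against SPG, 27 and 8 in SPT against late-SPCs, and 63 and 23 in the somatic classes between libraries. With a minimum of 50 UMIs, members called lower fell to 4, 4 and 3 in late-SPCs, SPT and early-SPCs against SPG, those higher in SPT than in late-SPCs to 5, and those of the somatic classes to 11 higher and 3 lower. The balance of higher and lower calls turned in some comparisons. SPT against SPG, with 9 higher and 10 lower, had 6 and 4 at 50 UMIs, and 9 and 8 with cells weighted equally, and early-SPCs against SPG, with 4 and 10, had 4 and 3 at 50 UMIs. For the minima, more or fewer members tested accounts for these moves by construction. A pseudocount of 10 CPM gave 10 members higher in deep germ-like cells, 9 higher and 1 lower in yak germ-like cells against the cattle-yak, and 7 higher and 4 lower in the somatic classes.

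For the other moves, apart from those of the thinned shares below, the cause was not tested. In germ-like cells of the yak against the cattle-yak, 7 members were lower without mitochondrial genes in the denominator, 1 with every cell weighted equally, 4 with a mitochondrial share below 20%, and 0 with kept cells alone, an alternative added after the data were seen. A further one, adding an unnamed cattle-yak cluster, gave 15 members higher. In the somatic classes, 31 were higher at a Leiden resolution of 0.5, 5 lower at a resolution of 2 and 4 lower once the 10% of cells scored highest by Scrublet were left out. With cells weighted equally, 2 members were higher in late-SPCs than in SPG. Any TSSK had a UMI in 25.9% of typed SPT and 0.651% of T/NK-like cells thinned to 500 UMIs, and in 1.95% of T/NK-like cells without thinning. Fewer UMIs per cell lower such shares by construction, and the cells included changed as well. A search of promoters for motifs was planned and not run. Depth limits the typed SSC, SPT and early-SPCs most, where 3 UMIs stand for 19.6, 11 and 10.5 CPM.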
